A study of Homo sapiens with 9 samples.

Results

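LINC genes are human long noncoding RNA genes that carry a serial number in place of a name with a meaning. The 50 LINC genes described here were those with the most reads in a comparison of oligo(dT) primers for reverse transcription. Each had a symbol made of LINC and digits only, a noncoding RefSeq accession, and at least 100 reads summed over the 7 count tables, with 1 transcript entry per gene (the entry with most reads). The tables held 1429 such LINC genes among 26625 genes. Of the 1429, 1088 had no read in any library, 291 had 1 to 99 reads in all, and 50 passed the limit. The members were thus chosen by their summed reads, and 6 of the 7 tables came from the same cell line, so the choice leaned towards genes read in that line.

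The libraries were made from total RNA of 2 established human lines grown in culture and labelled wild type (WT). HEK293T is a transformed embryonic kidney line, and A549 is a lung carcinoma epithelial line. The 6 HEK293T libraries differed in the primer: T12, T18 and T30 were unanchored and ended in 12, 18 and 30 T, whereas T18V, T18VN and T18VNN were anchored and had 1, 2 and 3 further bases after 18 T, the first of them any base but T. A549 had gene counts for 1 library, made with the T12 primer, so each combination of line and primer was a single library. The unanchored primers are shown because the comparison turns on how they end, with the T run in capitals after the shared adaptor.
T12: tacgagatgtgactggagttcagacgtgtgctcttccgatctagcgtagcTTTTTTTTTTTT
T18: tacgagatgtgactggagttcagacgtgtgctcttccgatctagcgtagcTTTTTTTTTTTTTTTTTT
T30: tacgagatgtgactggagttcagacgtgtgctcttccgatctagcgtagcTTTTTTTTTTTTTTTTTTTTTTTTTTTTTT
The anchored primers have the T18 sequence with the anchor added at its 3′ end. An anchor is meant to hold the primer at the border between the transcript body and its poly(A) tail.

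Long intergenic noncoding RNAs are mostly made by RNA polymerase II and are capped, spliced and polyadenylated like messenger RNAs, but they encode no known long protein. They are known for low levels and for expression restricted to few cell types, and many lie close to a coding gene, at times sharing its promoter. An oligo(dT) primer starts on a run of A, which is normally the poly(A) tail but can also be a run of A written in the gene itself.

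Reads on genes numbered 2215948 to 5200792 in the HEK293T libraries and 1498188 in A549, so 3 reads, taken as the detection floor, were worth 0.577 to 2.00 CPM (counts per 1000000 reads on genes). The library totals behind the deposited values ranged from 7491993 to 25578543 in HEK293T, with each anchored library below each unanchored one. Of 10 A549 marker genes, 8 were above the range of all HEK293T libraries in A549, while SFTPB and EPCAM were at 0 there. Of 7 HEK293T markers, 6 were below the HEK293T range in A549 and SALL4 was above it. In bulk RNA, fewer cells with a transcript and less RNA per cell cannot be told apart.

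The members together received 19307 reads. A single member had between 104 and 2694 reads, with a median of 201.5. LINC00342 alone held 13.95% of these reads and the top 10 members held 56.6%. The transcripts counted were 539 to 11193 nt long, with a median of 2116.5 nt. Most members were read in every HEK293T library (44 of 50), and 35 had a read in all 7 libraries. In A549, 9 members had no read and 15 had 3 reads or fewer. Without the A549 reads, 47 members would still have reached 100.

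The limit of 100 reads divides genes of nearly equal reads. Just inside it were LINC00562 with 104 reads, and LINC01976 and LINC00847 with 105 each. Just outside were LINC00665 with 99, LINC00958 with 98 and LINC01376 with 97. LINC00847 passed through its A549 reads, since 59 of its 105 came from that library.

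**Figure D1:**
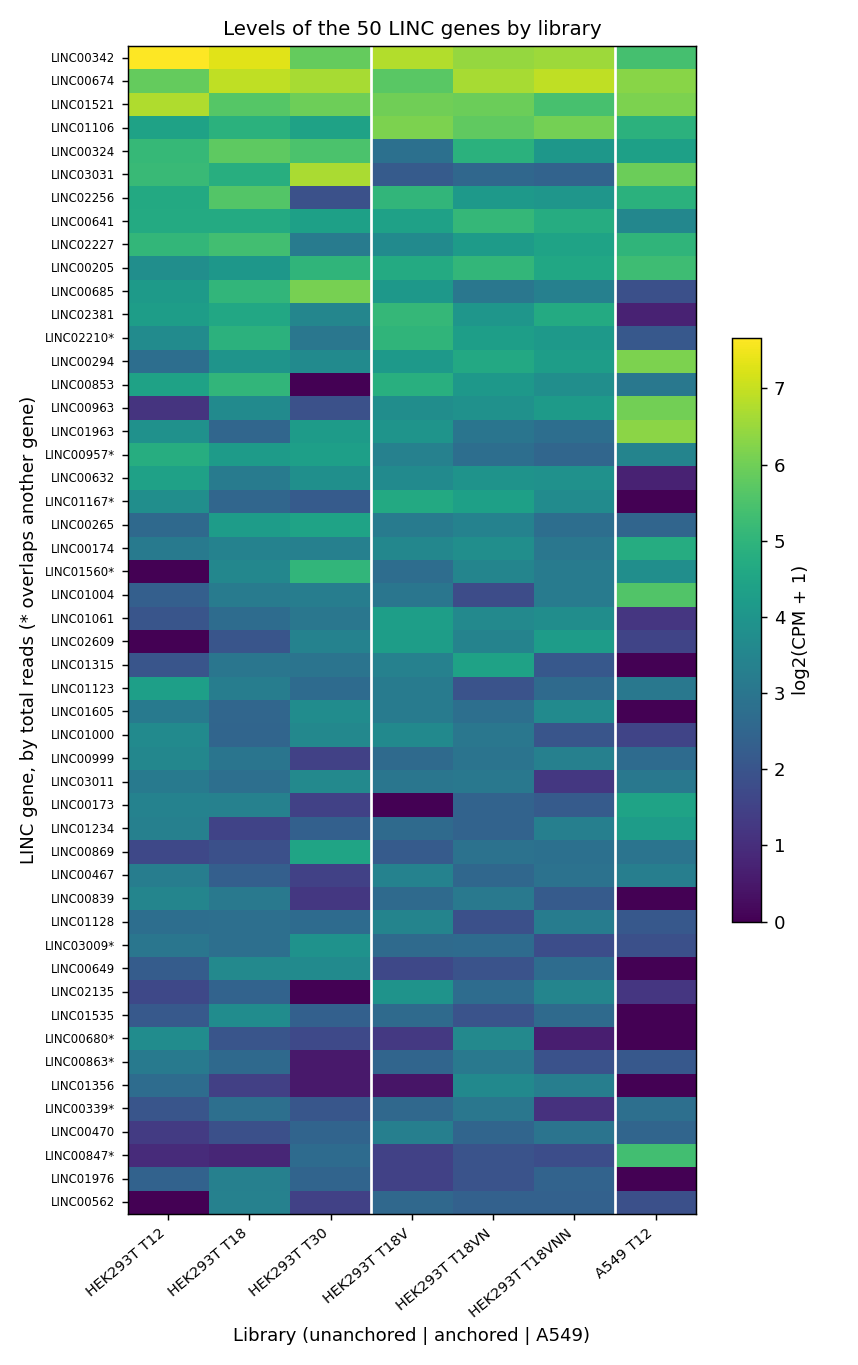
Levels of the 50 members as log2(CPM + 1), with 1 line per gene ordered by total reads and 1 column per library. White lines part the unanchored HEK293T, anchored HEK293T and A549 libraries, and an asterisk marks the 9 genes whose span overlaps another gene. LINC00342 and LINC00674 are high in all libraries, and the A549 column differs from the 6 HEK293T columns for genes such as LINC00963 and LINC02381.

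LINC00342, on chr2:96472800-96492729 (hg19, minus strand), had the most reads. Its level was 202, 158 and 56.4 CPM with T12, T18 and T30, 109.9, 85.7 and 92.3 CPM with T18V, T18VN and T18VNN, and 41.4 CPM in A549. The A549 library was thus the lowest, and the primer classes overlapped because T30 was the lowest of the HEK293T libraries. LINC00674, on chr17:66097696-66132070 (plus strand), had 56.6, 121 and 99.3 CPM with the unanchored primers, 51.2, 101 and 120.1 CPM with the anchored ones and 77.4 CPM in A549. T12 and T18V were the lowest libraries for this gene, and A549 lay inside the HEK293T range. LINC01521, on chr22:31742745-31747141 (plus strand), lies 495 bp from PATZ1, a zinc finger transcription factor gene on the opposite strand. It had 107 CPM with T12 and 42.3 to 63.7 CPM with the other HEK293T primers, and the A549 level of 70.1 CPM lay between T12 and the rest.

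The next members by reads differed in how widely the primers spread. LINC02256 had 24.2, 48.3 and 2.71 CPM with T12, T18 and T30, and 32.0, 16.7 and 15.3 CPM with T18V, T18VN and T18VNN, so T18 and T30 lay at opposite ends. LINC02227 had 32.5, 39.8 and 8.12 CPM with the unanchored primers, and 11.7, 17.4 and 20.6 CPM with the anchored ones. LINC00205, on chr21:46707967-46717269 (plus strand) and 155 bp from POFUT2, a protein O-fucosyltransferase gene on the opposite strand, had 12.9 to 33.0 CPM over the HEK293T libraries. LINC00641 was the steadiest of this group, at 19.4 to 33.7 CPM in HEK293T, and was lower in A549 at 10.7 CPM.

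Per unit of transcript length the order of the members changed. On the deposited FPKM scale, which divides reads by transcript length and by the library total, LINC00342 was again first, with a HEK293T median of 9.24 FPKM and a range of 2.11 to 13.2. Next came LINC00685, at its entry on chromosome Y (1 of 2 listed places), with a median of 6.56 FPKM (2.94 to 11.4). It was followed by LINC00853 with 6.05 (0 to 15.8), LINC01106 with 4.86 (1.09 to 12.1) and LINC00632 with 4.69 (1.99 to 5.72). These ranges overlapped, so the order of neighbours was not separated by the spread between primers. LINC00674, the second by reads, was not among the first 10 by FPKM, and its transcript of 11193 nt was the longest of the members. The median member had 0.989 FPKM, against 1.67 FPKM for the 9753 protein-coding genes with the same minimum of reads.

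The level of a single LINC gene varied widely between primers. Over the 6 HEK293T libraries, the highest CPM of a member was a median of 5.41 times the lowest among the 44 members with reads in all 6, with a range of 1.74 to 32.0, and 6 members exceeded 10 times. The highest library was T12 for 12 members, T30 for 12, T18V for 10, T18 for 8, T18VN for 7 and T18VNN for 1. Each primer was read from 1 library, so a difference between primers and one between preparations cannot be told apart, and the p-values below measure the spread between primers.

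Anchored and unanchored primers were compared in HEK293T by the quasi-likelihood test of edgeR, fitted to all genes of the 6 libraries and adjusted by Benjamini and Hochberg's method. Of the members, 49 entered the fit, and 1 fell with anchored primers while 0 rose by edgeR or by DESeq2 (1 of those higher had an unadjusted edgeR p under 0.05). The background was 1.35% of 10887 genes called, with 0.569% lower and 0.781% higher, so a single call among 49 members was near that background. Without adjustment, 5 members (10.2%) had p under 0.05, against 15.6% of all genes. In CPM, the 3 libraries of a class lay above the 3 of the other for 12 members (24.5%), against 23.6% of all genes. Of the 12, 7 were higher in the anchored and 5 in the unanchored class. The median log2 fold change was -0.21 for the members and -0.00 for all genes tested.

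The member that fell was LINC03031, a gene of 822 nt counted transcript on chr11:32057525-32062864 (hg19, minus strand), 49612 bp from RCN1, which encodes a calcium-binding protein of the endoplasmic reticulum. It had 116, 139 and 229 reads with T12, T18 and T30, and 10, 22 and 16 reads with T18V, T18VN and T18VNN. In CPM these were 35.5, 26.7 and 103 against 3.56, 4.91 and 4.45. Every unanchored library was above every anchored one, and T30 was far above the other unanchored libraries. The means were 55.2 ± 41.9 CPM (SD, n = 3) and 4.31 ± 0.687 CPM (SD, n = 3). On the log2 scale edgeR estimated a change of -3.84 (SE 0.60, adjusted p = 0.0107). The call was lost without T18V (adjusted p = 0.0696) and without T18VNN (adjusted p = 0.0594), where the fold change stayed at -3.76 and -3.87. Without T30 it was -2.99 with an adjusted p of 0.0352 by edgeR. A549, also made with an unanchored primer, had 91 reads, or 60.7 CPM, inside the range of the unanchored HEK293T libraries.

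Another 3 members had a lower CPM in every anchored library than in any unanchored one and an unadjusted edgeR p under 0.05. They did not pass the adjusted test. On the deposited FPKM scale, which divides by the library total, the classes overlapped for all 3. There T18V was above T30 for LINC00957 (2.03 and 1.29 FPKM), and T18VN was above T12 for LINC00324 (3.86 and 2.80 FPKM). For LINC00685 at its Y entry, T18V was above T12 (8.79 and 4.33 FPKM). LINC00957, on chr7:44078648-44082082 (plus strand), had 26.3, 17.5 and 19.0 CPM with the unanchored primers and 9.25, 5.80 and 4.73 CPM with the anchored ones, and edgeR gave it a fitted difference of -1.83 on the log2 scale (SE 0.52, adjusted p = 0.111). Its span overlaps RASA4CP, a pseudogene on the opposite strand, and whether strand was used in counting is not given. LINC00324, on chr17:8123948-8127361 (minus strand) and 777 bp from CTC1, which encodes a telomere maintenance protein, had 34.0, 53.3 and 44.2 CPM unanchored and 6.05, 28.8 and 15.6 CPM anchored. The edgeR estimate was -1.55 on the log2 scale (SE 0.52) with an adjusted p of 0.174. DESeq2 called LINC00957 (adjusted p = 0.0349) and did not call LINC00324 (adjusted p = 0.0670).

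LINC00685 was the third of these and is uncertain, because it lies in the region that X and Y share and is listed on both. The entry with most reads, on chrY:231385-232067, had 17.1, 31.7 and 66.8 CPM unanchored and 16.0, 7.14 and 9.18 CPM anchored, for which edgeR estimated -2.03 on the log2 scale (SE 0.58, adjusted p = 0.114), and DESeq2 gave an adjusted p of 0.0176. The entry on chrX:281385-282067 had 19.9, 29.4 and 11.3 CPM unanchored and 22.8, 5.13 and 7.79 CPM anchored. When both entries were summed, T18V at 38.8 CPM was above T12 at 37.1 CPM. In CPM the classes therefore overlapped for the X entry and for the sum, and were apart only for the Y entry.

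In the other direction LINC01106, on chr2:111132686-111142113 (minus strand), had 20.2, 28.8 and 20.3 CPM with T12, T18 and T30 and 70.4, 54.7 and 66.5 CPM with T18V, T18VN and T18VNN. The anchored libraries were all above the unanchored ones, with means of 63.9 ± 8.20 and 23.1 ± 4.96 CPM (SD, n = 3). On the log2 scale the estimate was 1.29 (SE 0.35), and the adjusted p of 0.10 by edgeR missed the threshold of 0.05. LINC01106 has a near-identical copy in the member LINC01123 (99.4% identity over 1727 nt of transcript), so reads could be divided between them. LINC01123 had 19.0, 8.46 and 5.42 CPM unanchored and 8.18, 2.90 and 5.28 CPM anchored, with overlapping classes. Among the 25 members searched, 7 had a near-identical stretch in a transcript of another gene, counting both of these. LINC00294, LINC00339, LINC00174, LINC01356 and LINC03009 were the others. Genes at the same place were not taken out of the search, so a match need not be a second copy. POMZP3, which LINC03009 matched at 100% on the opposite strand, overlaps it. The only matches of LINC00294 and LINC01356 were also at 100% on the opposite strand.

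**Figure D2:**
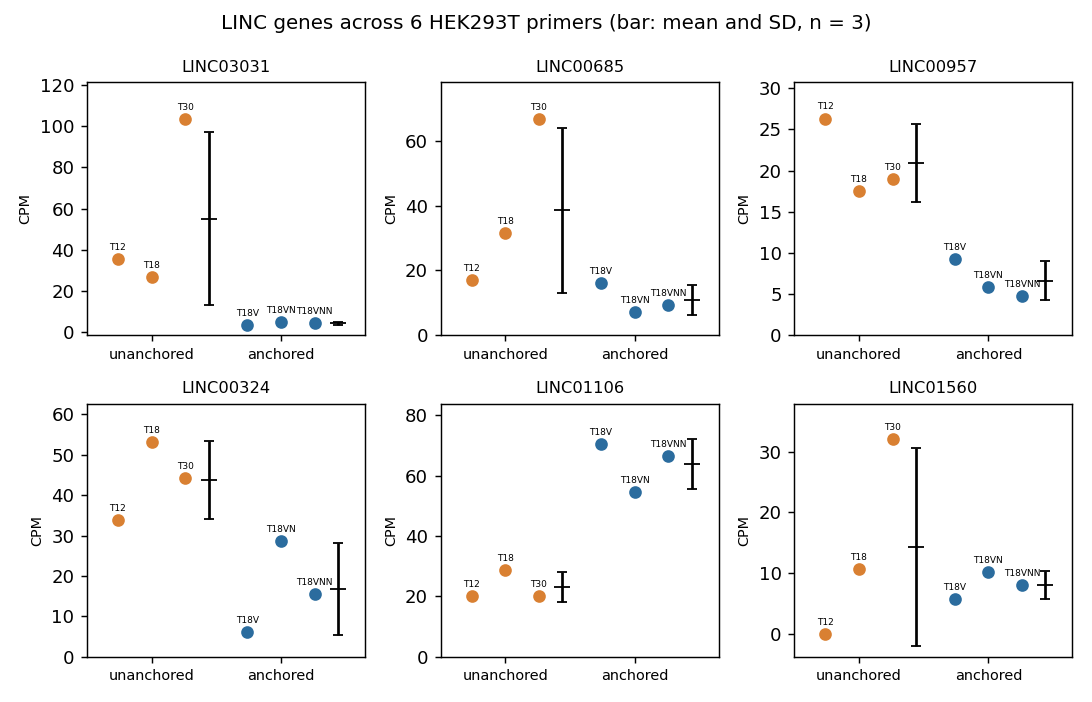
Levels in CPM of 6 members in the 6 HEK293T libraries, unanchored in orange and anchored in blue, each point 1 library and the bar the mean and SD of 3. LINC03031 lies at 26.7 CPM or above with unanchored and at 4.91 CPM or below with anchored primers, LINC01106 has the opposite order, and the classes overlap for LINC01560.

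The transcript sequences were read for runs of A, since a primer of T can start there. GENCODE transcripts were matched to 47 of the 50 members (94%). For 25 members the transcript was within 5% of the counted length, and for the other matched members it was of another length. The limit was set at 18 A, the length of the T run in T18 and in the anchored primers. A run of this length or longer was present in 5 of 47 members (10.6%), in 576 of the 10766 tested genes that were matched (5.35%), and in 13 of 1374 matched LINC genes (0.946%). Of the 13 LINC genes with the run, 12 had at least 1 read and 5 were members (38.5%), against 42 members among the 1361 LINC genes with a shorter longest run (3.09%). Genes that fell with anchored primers held such a run in 21 of 60 cases (35%), and those that rose in 0 of 85. With only transcripts within 5% of the counted length, the run was in 5 of 25 members (20%) and 405 of 8088 tested genes (5.01%). On the same basis it was in 10 of 961 LINC genes (1.04%), 17 of 41 genes that fell (41.5%) and 0 of 67 that rose.

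The 5 members with a run of at least 18 A are shown with 30 bases on each side where the transcript extends that far, because they carry the longest stretches an oligo(dT) primer could match in these genes. The sequences are from GENCODE 29 transcripts on GRCh38, 5′ to 3′ along the RNA, with the run in capitals.
LINC03031: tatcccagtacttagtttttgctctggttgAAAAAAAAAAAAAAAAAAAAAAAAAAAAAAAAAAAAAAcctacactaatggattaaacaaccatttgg
LINC00173: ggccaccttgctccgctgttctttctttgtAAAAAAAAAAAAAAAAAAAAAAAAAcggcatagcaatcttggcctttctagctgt
LINC02227: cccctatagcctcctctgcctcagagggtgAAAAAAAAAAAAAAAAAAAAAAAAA
LINC00853: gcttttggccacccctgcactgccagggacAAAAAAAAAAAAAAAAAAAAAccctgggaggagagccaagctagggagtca
LINC02135: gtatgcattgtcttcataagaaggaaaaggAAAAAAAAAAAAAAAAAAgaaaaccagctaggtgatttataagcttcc
The run of LINC03031 is 38 A long and lies at chr11:32036695-32036732 (GRCh38, minus strand), in exon 2 of 3 and 307 nt before the 3′ end. LINC00173 has 25 A at chr12:116535340-116535364 (plus strand), 157 nt before the end. LINC00853 has 21 A at chr1:47180028-47180048 (plus strand), 291 nt before the end, and LINC02135 has 18 A at chr16:86293041-86293058 (plus strand), 331 nt before it. These 3 runs lie in the last exon. The 25 A of LINC02227, at chr5:158320683-158320707 (minus strand), are the end of its transcript. LINC03031 was the only member with 30 A or more, a length found in 0.455% of all tested genes.

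The other 4 members with such runs did not pass the test, and their fold changes lay on both sides of 0. LINC00173 had 9.49, 9.23 and 1.81 CPM with T12, T18 and T30 and 0, 4.46 and 3.61 CPM with T18V, T18VN and T18VNN, a log2 fold change of -1.48 (adjusted p = 0.578 by edgeR). LINC00853, at 20.2, 31.7 and 0 CPM unanchored and 27.7, 15.8 and 12.8 CPM anchored, had a log2 fold change of -0.06 (adjusted p = 0.985 by edgeR). LINC02135 had 2.14, 4.42 and 0 CPM unanchored and 14.2, 5.58 and 10.3 CPM anchored, with each anchored library above each unanchored one and a log2 fold change of 1.93 (adjusted p = 0.381 by edgeR). For LINC02227 the log2 fold change was -0.86 (adjusted p = 0.505 by edgeR). Both LINC00853 and LINC02135 had no read with T30, the primer in which LINC03031 was highest. Of the 5 members with 18 A or more, 4 had a fold change below 0 (median -0.86), as did 3 of 8 with 12 to 17 A (median 0.15) and 20 of 33 with shorter runs (median -0.21). Whether the runs took part in these differences was not tested.

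**Figure D3:**
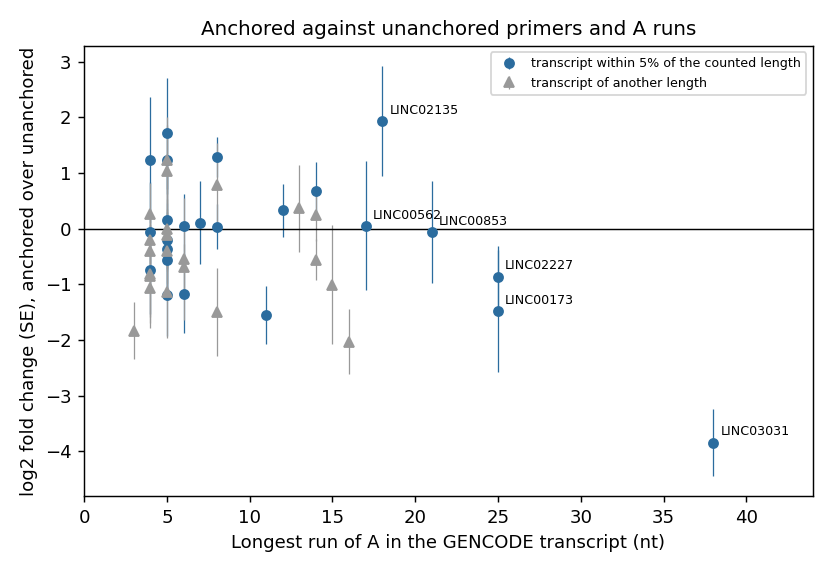
Fitted log2 fold change of anchored over unanchored primers (bars: SE) against the longest run of A, in nt, in the GENCODE transcript of each member that was both matched and tested. Blue circles are transcripts within 5% of the counted length and grey triangles are transcripts of another length. LINC03031, at 38 A and -3.84, stands apart, while the members at 17 to 25 A range from -1.48 to 1.93.

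At the 3′ ends, 26 of 47 members (55.3%) held the polyadenylation signal AATAAA on the transcript strand in the last 50 nt, against 61.5% of all tested genes. A further 5 members held ATTAAA only. Among transcripts within 5% of the counted length, the signal was in 17 of 25 members (68%), against 66.0% of tested genes. The members were thus not lower once the transcript lengths matched. LINC03031 holds the signal at its own end as well as the inner run of A, as its last 50 nt show with AATAAA in capitals.
LINC03031 3′ end: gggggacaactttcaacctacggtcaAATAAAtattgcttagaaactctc
LINC02381 3′ end: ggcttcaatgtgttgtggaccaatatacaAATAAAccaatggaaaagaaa
These windows are chr11:32035981-32036030 (minus strand) and chr12:54132794-54132843 (plus strand) on GRCh38. LINC02381 is shown beside it as a member with the signal but with no A run over 12, and its level was 10.4 to 33.4 CPM over all 6 HEK293T primers with overlapping classes. A match says only that these letters are in the window.

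A549 and HEK293T were set side by side with the T12 primer, 1 library each, so the ratios compare these 2 libraries and carry no test. Of the members, 35 reached 20 reads in the higher of the pair. Of these, 8 had a level 2-fold or more higher in A549 (22.9%, against 31% of 10145 genes) and 15 had one 2-fold or more lower (42.9%, against 29.2%), on the log2(CPM + 1) scale. The A549 CPM was also outside the range of all 6 HEK293T libraries for 8 higher and 11 lower members of the 35. Among the 10145 genes the same held for 2683 higher (26.4%) and 2244 lower (22.1%). The median log2 ratio was -0.78 for these members and 0.02 for all such genes. The members were chosen on 6 HEK293T tables and 1 A549 table. Of those with 100 reads in HEK293T alone, 34 reached 20 reads in the pair, with 7 higher (20.6%) and 15 lower (44.1%). Over all 51 LINC genes with 20 reads, members or not, 18 were higher and 20 lower, and the median was -0.05. Scaling by TMM moved the median of all genes by -0.26 on the log2 scale, and scaling by the library total moved it by -0.28.

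**Figure D4:**
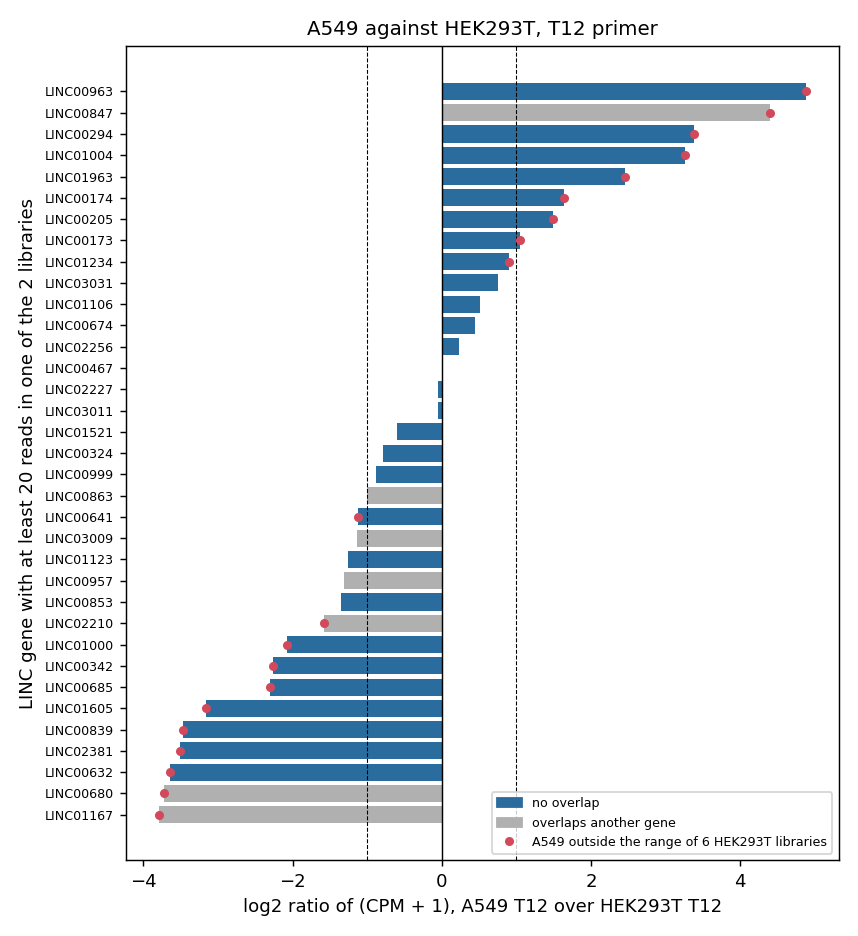
The log2 ratio of (CPM + 1) in A549 T12 over HEK293T T12 for the 35 members that reached 20 reads in either library, 1 library per line and no error bar. Dashed lines mark 2-fold, grey bars are genes that overlap another gene, and red points mark genes whose A549 level is outside the range of the 6 HEK293T libraries. LINC00963 is the highest and LINC01167 the lowest.

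The member with the highest ratio was LINC00963, on chr9:132250939-132275965 (hg19, plus strand), an RNA described in prostate cancer. It had 97 reads in A549 (64.7 CPM) against 4 in HEK293T T12 (1.22 CPM), a ratio of 52.9 with an exact 95% counting interval of 20.0 to 198. With the other HEK293T primers it had 11.7, 2.71, 12.5, 13.6 and 17 CPM in T18, T30, T18V, T18VN and T18VNN, so T12 was the lowest of them and A549 was above all. LINC00847, on chr5:180257957-180262726 (plus strand), had 59 reads in A549 (39.4 CPM) against 3 with HEK293T and T12 (0.919 CPM), with at most 5.42 CPM under any HEK293T primer. Its ratio was 42.9 (counting interval 14.0 to 214). LINC00847 overlaps HEIH, a noncoding gene on the opposite strand, so its reads could belong to either.

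LINC00294, on chr11:33097696-33101000 (plus strand), lies 2586 bp from TCP11L1. It had 105 reads in A549 (70.1 CPM) against 19 with HEK293T and T12 (5.82 CPM), and 11.7 to 23.4 CPM with the other HEK293T primers. The ratio was 12 (counting interval 7.34 to 20.8). LINC01004, on chr7:104622194-104631612 (minus strand) and 23024 bp from KMT2E, a gene for a SET-domain chromatin protein, had 70 reads in A549 (46.7 CPM) against 13 with HEK293T and T12 (3.98 CPM), with no HEK293T library above 8.57 CPM. LINC01963, on chr2:217081612-217084915 (plus strand), lies 10595 bp from XRCC5, which encodes the Ku80 subunit of DNA end joining. It had 120 reads in A549 (80.1 CPM) against 45 in HEK293T T12 (13.8 CPM) and at most 17.6 CPM with the other primers. LINC00205 was closer, at 38.0 CPM in A549 against 12.9 in HEK293T T12 and 33.0 CPM in T18VN, the highest HEK293T library. All of these A549 values were above the 6 HEK293T libraries in CPM, LINC00205 by the smallest step. On the deposited FPKM scale LINC00205 was inside the HEK293T range, at 0.715 in A549 against 0.310 to 1.29.

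At the other end, LINC00632, on chrX:139791924-139854842 (plus strand), is the host transcript of the locus that gives the circular RNA CDR1as. It had 1 read in A549 (0.667 CPM) against 65 in HEK293T T12 (19.9 CPM), and 8.08 to 14.3 CPM with the other HEK293T primers. HEK293T T12 was 29.8 times A549 (counting interval 5.17 to 1196). LINC02381, on chr12:54519855-54526627 (plus strand) and 47514 bp from SMUG1, a DNA glycosylase gene, also had 1 read in A549 (0.667 CPM) against 59 in HEK293T T12 (18.1 CPM), a ratio of 27.1 (counting interval 4.67 to 1087). The single read of both genes in A549 is under the floor of 3 reads, so these ratios are known only within their intervals. LINC00342 was 4.88 times higher in HEK293T T12 than in A549 (counting interval 3.75 to 6.43), with 659 and 62 reads. LINC00641 was 2.29 times higher, with 80 and 16 reads. For LINC00685 the Y entry had 4 reads in A549 against 56 in HEK293T T12, and the X entry 6 and 65.

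Members with no read in A549 were set against the floor of 3 reads per library. LINC01167 was at least 6.42-fold lower in A549 than in HEK293T T12 (0 and 42 reads), LINC00680 at least 6.12-fold (0 and 40 reads), LINC00839 at least 5.05-fold (0 and 33 reads) and LINC01605 at least 3.98-fold (0 and 26 reads). The exact 95% counting intervals, which also cover the error of the HEK293T count, began lower, at 5.00, 4.75, 3.88 and 3.01 in the same order. LINC00839 had 1.35 to 10.1 CPM over the HEK293T primers. LINC01167 overlaps LINC01166, and LINC00680 overlaps a readthrough gene, LINC00680-GUSBP4, so both are uncertain. LINC00680 ranged from 0.556 to 12.2 CPM within HEK293T alone.

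The direction of LINC02210 depends on where its reads are listed. The gene overlaps the readthrough gene LINC02210-CRHR1 and is listed on chr17:43697695-43715329 and on a haplotype sequence of the same region, with 445 reads at each. On chromosome 17 it had 11.9 CPM in HEK293T T12 and 3.34 CPM in A549, and on the haplotype sequence 15.0 and 21.4 CPM. Summed over both it had 26.9 and 24.7 CPM, so the 2-fold difference held for the chromosome 17 entry only.

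Across all 50 members, the A549 CPM lay above the 6 HEK293T libraries for 9, below them for 18 and inside their range for 23. Of the 10487 genes of any kind with at least 100 reads in all, 28.5% were above and 30.1% below. The same limit on mostly HEK293T reads chose both sets, and a difference between them was not tested. Most differences between the lines have to be read against the spread between primers in the same line. Compared with HEK293T T12, the other HEK293T primers already differed by at least 2-fold in 37.8% (T18) to 56.8% (T30) of the members with 20 reads. For all genes the shares were 29.2% with T18, 36.9% with T30, 40.02% with T18V, 36.9% with T18VN and 39.1% with T18VNN, and the members had 39.0% with T18V, 39.5% with T18VN and 54.5% with T18VNN. The members were thus near the background with T18V and T18VN. Without the 7 members of the 35 that overlap another gene, 7 of 28 were higher and 10 lower, with a median log2 ratio of -0.05.

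LINC genes that did not reach 100 reads included some with reads in A549 only. LINC02582 had 80 reads in A549 (53.4 CPM) and none in any HEK293T library, at least 58.1-fold above HEK293T T12 at 3 reads. LINC00511, an RNA studied in breast and lung cancer, had 35 reads (23.4 CPM) in A549, and LINC00473, known as a target of cAMP and CREB signalling, had 19 (12.7 CPM), both with none in HEK293T. LINC00473 overlaps another gene. LINC00673 had 53 reads in A549 (35.4 CPM), none with T12 and T30 in HEK293T, and 3.65, 2.49, 3.57 and 0.278 CPM with T18, T18V, T18VN and T18VNN. In all, 10 LINC genes that were not members had at least 20 reads in A549 and 6 had so in HEK293T T12. These genes were left out by the rule on summed reads and are named here after their values were seen.

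A list of 40 LINC RNAs that are studied in cancer or development had 36 genes in the tables, of which 9 were members, 9 had no read and the rest had 1 to 99 reads. Besides LINC00342, LINC00294, LINC00632, LINC00839, LINC00963 and LINC01004, the members were LINC00467, LINC01234 and LINC00339. LINC00467, an RNA repressed by MYCN in neuroblastoma, had 8.57 CPM in HEK293T T12 and 8.68 CPM in A549, inside the HEK293T range of 1.81 to 9.61 CPM. LINC01234, studied in gastric cancer, had 18 CPM in A549 and 1.92 to 9.19 CPM in HEK293T, so A549 was above all 6 libraries in CPM. On the deposited FPKM scale its A549 level was inside their range, at 1.16 against 0.187 to 1.18. LINC00339, which lies near CDC42 and overlaps LINC01635 on the opposite strand, had 6.01 CPM in A549 and 1.11 to 7.14 CPM in HEK293T. None of these 9 members passed the adjusted edgeR test between anchored and unanchored primers, where 0 had an unadjusted p under 0.05, and none passed with DESeq2.

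By position, 41 members overlapped no other gene and 9 did, 3 of them with the span of a coding gene. The median distance to the nearest coding gene was 22469.5 bp. Over 50 kb away were 18 members, and 8 lay within 5 kb without overlapping that coding gene. LINC00957, which overlaps a pseudogene, is among those 8. Chromosome 7 held 7 members. For 15 members both the LINC gene and its nearest coding gene had at least 20 reads in the higher T12 library. Across these 15 pairs the log2 ratios of A549 over HEK293T had a Pearson r of 0.50 and a Spearman rho of 0.51, and the sign was the same in 8. Without overlapping genes, 13 pairs gave 0.53 and 0.48. All points come from the same 2 libraries, so these are descriptions with no p.

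LINC01963 and XRCC5 were a pair of opposite direction, with XRCC5 at 169 reads in A549 and 1020 in HEK293T T12 (log2 ratio -1.46) and LINC01963 at 2.46. LINC02381 and SMUG1 had the same direction, SMUG1 at 6 and 103 reads (log2 ratio -2.70). LINC01004 and KMT2E were both higher, KMT2E at 131 and 122 reads (log2 ratio 1.21).

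Taken as a group, the members received a slightly larger part of the gene reads with unanchored primers. Their share was 0.0873%, 0.0939% and 0.0822% with T12, T18 and T30, and 0.0798%, 0.0783% and 0.0745% with T18V, T18VN and T18VNN, against 0.0880% in A549. The unanchored libraries were all above the anchored ones, at 0.0878 ± 0.00588% and 0.0775 ± 0.00273% (SD, n = 3). The difference of -0.0103 percentage points had an exact two-sided permutation p of 0.1, the smallest that 3 against 3 can give, and 0.1 after adjustment over the 2 library-level measures. Wilson 95% intervals for counting error alone ran from 0.0842 to 0.0906% for T12 and from 0.0717 to 0.0774% for T18VNN. Without LINC00342 the difference shrank to -0.00603 percentage points (p = 0.3 by the exact permutation test). Over the library total in place of gene reads it reversed to 0.00960, again with p = 0.1 by the exact permutation test. The direction thus depended on the denominator. Over all LINC genes, A549 had the largest share, 0.145%, against 0.0951 to 0.11% in HEK293T.

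At equal depth, the number of LINC genes seen was higher in the anchored libraries. At a common depth of 2215948 reads, 73.1, 70.4 and 72.0 LINC genes were expected to have at least 5 reads with T12, T18 and T30, and 79.6, 79.3 and 87.5 with T18V, T18VN and T18VNN. Each anchored library was above each unanchored one, with means of 82.1 ± 4.62 and 71.9 ± 1.36 (SD, n = 3), and the exact permutation p for the difference of 10.3 genes was again 0.1, the smallest possible. At the deposited depths the classes overlapped, at 84, 99 and 72 genes unanchored and 88, 99 and 105 anchored. The difference there was 12.3 genes with an exact permutation p of 0.3. No such count over all genes is given, so whether this was particular to LINC genes was not tested.

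Other noncoding classes are given for scale. Of genes named as antisense or intronic, 32.3% were higher by 2-fold or more in A549 and 45.4% lower, with a median log2 ratio of -0.74 over 130 genes. For genes that once had a LINC name and were renamed, the median was -0.29 over 38 genes. Noncoding genes with a LOC symbol had the lowest median of these classes, -1.60 over 44 genes, with 15.9% higher and 61.4% lower, and the median was 0.04 over 9478 protein-coding genes. No difference between these classes and the LINC members was tested.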

How the data were processed

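The authors deposited read counts for each RefSeq transcript in 7 of the 9 libraries, together with FPM, a signal that divides the count by the library total, and FPKM values, which also divide by transcript length, per the file headers. Per the submitters' processing notes, the tools named were FastQC 0.11.8, cutadapt 2.10, Trimmomatic 0.39, HISAT2 2.2.1 and SAMtools, on GRCh37/hg19. The counting tool, its use of strand and the treatment of multiply aligned reads are not given in the sources used here.

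Accessions were matched to symbols of the RefSeq table (GRCh38.p14), which named 60133 of 61177 entries (98.3%). The gene counts were tested with edgeR 4.0.16 (filterByExpr, TMM, quasi-likelihood F-test, threshold 0.05 after adjustment) over all genes of 6 HEK293T libraries. The biological coefficient of variation between primers was 0.484. CPM is per reads on genes, 1 CPM was added before log2, and ratios needed 20 reads in the higher library. Intervals and the floor of 3 reads cover counting error only. No molecular identifiers are described, so reads are not independent molecules. DESeq2 1.42.0, other scalings, filters and pseudocounts, another transcript per gene and leaving out each library were alternatives.

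Coordinates are hg19 as deposited, and sequences are from GENCODE 29 (GRCh38), matched to 98.9% of tested genes. For 74.3% of tested genes the transcript was within 5% of the counted length. Near-identical stretches (97% identity over 300 nt) in transcripts of other genes, on either strand and at any position, were found with BLAST 2.17.0. The members with printed levels were those with most reads, the largest ratios between lines outside the HEK293T range with at least 50 reads, the called or nearest members between primers, those at the limit of 100 reads, those on a list of 40 studied LINC RNAs, and the 3 with the highest ratio of the first to the second HEK293T library. Levels of LINC00173, LINC00853, LINC02135, LINC01123, LINC01167, LINC00680, LINC01605, LINC02210, LINC00869 and LINC01315 are printed outside this rule, chosen after their values were seen. Members and lists were chosen with earlier results of these data known. A549 replicate 1 and HEK293T T12 replicate 2 have no gene counts here, and gene body coverage and poly(T) lengths were not used.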

Additional observations from a re-analysis of the deposited data

Results flagged for a closer look

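In 7 of the 50 members, 1 of the 6 HEK293T libraries stood far from the other 5. LINC01521 had 107 CPM with T12, LINC03031 had 103 CPM with T30 and LINC01560 had 32.0 CPM with T30. LINC00869 had 21.2 CPM with T30, LINC01315 had 20.3 CPM with T18VN, LINC01123 had 19.0 CPM with T12 and LINC01535 had 12.3 CPM with T18. In each the gap to the nearest library exceeded 0.625 of the whole range. All 50 members and 2 library-level measures were examined. For 6 normally distributed values this limit flags about 1 in 20, or 2.6 of 52, a rate that need not hold for CPM from different primers. The members were also chosen by summed reads, which a single high library raises, so the 7 flagged are no test.

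LINC01535, on chr19:37742787-37756437, had 2.90 to 5.34 CPM with the other 5 primers and no read in A549. LINC01560, on chrX:47342115-47344626, overlaps ZNF41 on the opposite strand and had 0 reads with T12, 10.8 CPM with T18 and 5.69 to 10.3 CPM with the anchored primers. LINC00869, on chr1:149576161-149616830, had 2.14 to 6.47 CPM with the other 5 primers. LINC01315, on chr22:42760406-42765214, had 3.06 to 9.25 CPM with the other 5.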

How the results depend on the processing

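The number of members that fell with anchored primers was 1, and became 2 without the filter on low counts, 3 with DESeq2, and 0 to 1 when each library was left out. Over all genes, 147 were called, against 581 with DESeq2, 556 without the filter, and 45 to 111 with a library left out. The median log2 fold change of the members, -0.21, ranged from -0.28 to 0.00526 with a library left out, the latter without T18. The count of members at least 2-fold higher in A549, 8 of 35, became 5 of 35 when scaled by the library total. Without a minimum of reads it was 13 of 50. The count lower, 15 of 35, became 8 of 21 with a minimum of 50 reads and 20 of 50 without a minimum. The number of members counted thus changed with the minimum. The median log2 ratio between the lines, -0.78, was -1.04 under TMM and -0.0504 without overlapping genes. The difference in the members' share of reads reversed to 0.00960 over the library total. By place of listing, chosen after seeing the data, the log2 ratio of LINC02210 went from -1.58 to 0.48 at the other listed place and to -0.12 for both summed. LINC00685, at its Y entry alone, and LINC00957 passed the test with DESeq2. The cause of these changes was not tested. No paired analysis was possible because each primer has 1 library with gene counts, and the 2 lines' libraries carry different replicate numbers. With 1498188 gene reads in A549, a level under 2.00 CPM is below the floor there.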
